A study of Mus musculus with 6 samples.

Results

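Nuclear receptors for hormones are transcription factors that a small lipid-soluble ligand switches on or off. The genes described here are 9 such receptors that act in bone and its precursors. They were chosen with earlier results of these data known, and were taken by gene symbol from the 17213 genes of the count table. They are the vitamin D receptor Vdr, the glucocorticoid receptor Nr3c1, estrogen receptor alpha Esr1, the retinoic acid receptors Rara, Rarb and Rarg, the retinoid X receptor Rxra, thyroid hormone receptor alpha Thra and the fatty acid sensor Pparg. All 9 were in the count table, and all 9 passed the filter on low counts that left 14632 genes for testing.

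RNA was sequenced from dental follicle cells of mouse mandibular molars at postnatal day 8, in 3 libraries labelled KO and 3 labelled Het. The dental follicle is the connective tissue sac around a developing tooth, whose cells give rise to the periodontal ligament, cementum and alveolar bone. The KO libraries carry the genotype label Pth1r(-/-) and the Het libraries Pth1r(+/-), and the series text calls both conditional, so the Het cells also have an altered copy and no unaltered group was compared. Pth1r encodes the receptor for parathyroid hormone and for parathyroid hormone-related protein (PTHrP). Cells of both groups were labelled PTHrP+ and were sorted for the red reporter tdTomato after a tamoxifen pulse, which the series text puts at postnatal day 3 and the sample labels at day 8. The labels do not name the Cre driver or the deleted exons, and do not say whether the libraries came from separate animals.

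Ligand-bound receptors of this superfamily sit on short repeated DNA elements and exchange corepressors for coactivators. Vdr, the RARs, Thra and Pparg bind as heterodimers with an RXR, whereas Nr3c1 and Esr1 bind mainly as homodimers. In the skeleton, vitamin D, glucocorticoids, estrogen, retinoic acid and thyroid hormone all act on cells of the osteoblast lineage, and PPARγ is the master regulator of the adipocyte fate that stromal precursors can also take.

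Total counts were 51804736 to 66147200 in the libraries labelled KO and 34019925 to 63787622 in those labelled Het. Pth1r itself went against the labels: it had 961, 608 and 472 CPM (each count as a rate of its library's total, after TMM) in KO replicates 0, 1 and 2, against 371, 286 and 346 CPM in Het replicates 0, 1 and 2. Because gene totals include exons outside a deletion, they do not check the deletion, and every direction below is between libraries labelled KO and Het. Pthlh, which encodes PTHrP, was at 298 to 350 CPM in KO and 260 to 344 CPM in Het libraries. Osteoblast markers, summed over 7 genes, were at 36263 to 61613 CPM in KO and 21401 to 34691 CPM in Het libraries. Smooth muscle and pericyte markers, summed over 6 genes, were at 653 to 777 CPM in KO and 943 to 1108 CPM in Het libraries. Dental epithelial markers were at 5188 to 10839 CPM in KO and 5281 to 8513 CPM in Het libraries, so transcripts of epithelial cells were also present. Neither the osteoblast nor the smooth muscle sums overlapped between the groups, and their part in any receptor value was not tested. Such sums follow their most abundant genes. All 7 osteoblast markers were fitted higher in KO libraries, and for 1 of them the groups did not overlap. Of 5 tested smooth muscle and pericyte markers, 2 were fitted higher and 3 lower, and for 2 the groups did not overlap, beside 10.7% of all genes. Of the 6 libraries, Het replicate 2 was the most distant: it scored 67.8 on principal component 1 (46.8% of variance), against -18.4 to -7.01 for the rest, and its pairwise chi-square per degree of freedom was 283 to 432, against 91.3 to 166 among the others. Without it, the log2 fold changes of the receptors whose unadjusted p was lowest were -0.66 for Pparg, -0.42 for Rarb and 0.37 for Rxra, and no receptor was called. In sorted bulk samples, fewer cells of a type and less RNA per cell cannot be told apart.

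The regulatory sequence shown is that of Rarb, because Rarb is itself a textbook target of retinoic acid and its promoter was the only receptor promoter in which a search for spaced repeats had a match. RefSeq promoters (build GRCm38.p6, 250 bases before to 50 bases after the start) were available as 15 entries for 7 of the 9 receptors, all but Nr3c1 and Thra. The hexamer AGGTCA was searched on both strands together with the variant GGGTCA, the variant AGTTCA and the variant GGTTCA, in any combination, as direct repeats with spacers of 1 to 5 bases. Capitals in the Rarb promoter, chr14:16575427-16575726 on the minus strand, mark the matching pair of hexamers, 5 bases apart, at positions -53 to -37 from the start.

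Rarb promoter: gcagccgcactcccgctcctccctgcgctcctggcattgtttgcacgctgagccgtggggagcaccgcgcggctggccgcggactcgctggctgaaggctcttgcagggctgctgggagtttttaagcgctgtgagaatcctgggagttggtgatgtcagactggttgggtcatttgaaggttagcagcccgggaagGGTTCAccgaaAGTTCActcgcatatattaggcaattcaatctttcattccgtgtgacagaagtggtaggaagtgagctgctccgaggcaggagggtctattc

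A repeat with the 5-base spacer was present in 32 of 32851 promoters (0.0974%), and among the genes of retinoid metabolism and response it was present in Cyp26a1, which encodes a retinoic acid-degrading enzyme. The Cyp26a1 match lay at chr19:37697776-37697792, positions -32 to -16, on the strand opposite to transcription, so its hexamers read reversed. In the 2 windows below, capitals mark the hexamers.
Rarb: ggaagGGTTCAccgaaAGTTCActcgc
Cyp26a1: aaagaTGAACTttgggTGAACTaattt
The exact arrangement GGTTCANNNNNAGTTCA, read off the Rarb match after it was found, was in 2 of all promoters (0.00609%), Rarb included. Spacers of 1, 2, 3 and 4 bases had matches in 0.222%, 0.268%, 0.0396% and 0.0822% of promoters and in none of the 15 receptor entries. A match describes letters in the window only.

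Levels of different receptors were compared per length, as the FPKM values the authors deposited. Rarg was first, with a mean of 42.1 FPKM over the 6 libraries, a range of 24.7 to 49.2 FPKM, and a level above that of 85.8% of the genes detected. Thra followed at 28.6 FPKM (20.9 to 31.9), then the glucocorticoid receptor Nr3c1 at 20.9 FPKM (10.6 to 27.7), Rarb at 18.1 FPKM (10.2 to 22.9) and Rara at 17.2 FPKM (12.3 to 22.3). Rxra was at 14.2 FPKM (10.1 to 18.5). A lower tier held Vdr at 5.07 FPKM (3.09 to 7.52) and Pparg at 4.20 FPKM (1.93 to 6.25). Esr1 was last at 0.551 FPKM (0.336 to 0.966), above 24.5% of detected genes. Ranges of neighbours in this order overlapped except between Rxra and Vdr and between Pparg and Esr1, where every library of one was above every library of the next.

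**Figure D1:**
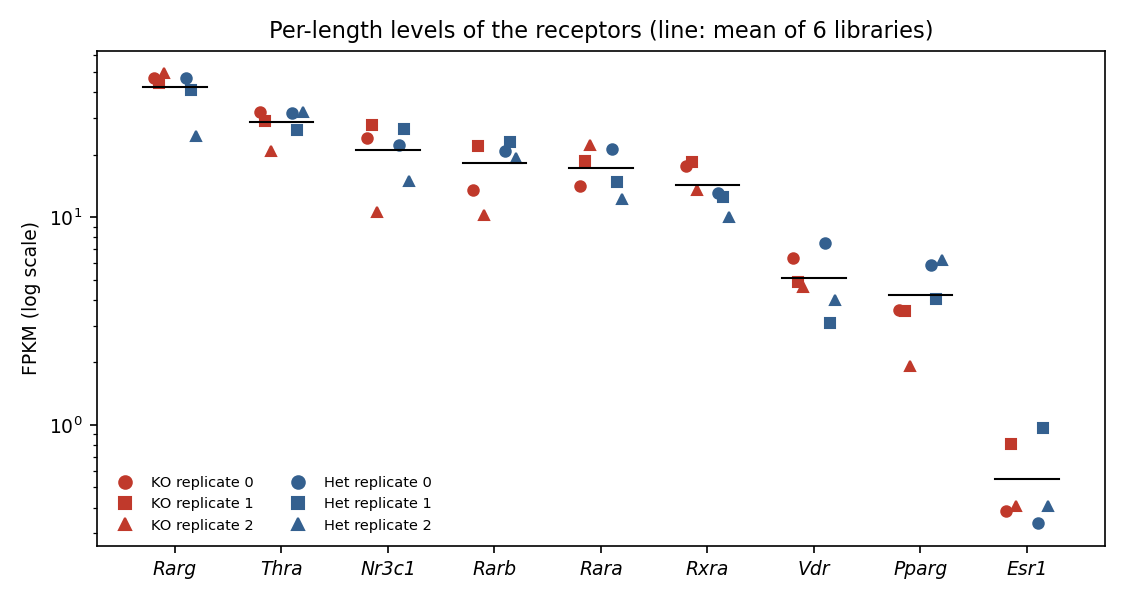
FPKM on a log scale for each receptor in the 3 libraries labelled KO (red) and the 3 labelled Het (blue), with the mean of all 6 as a line. Points run in 3 tiers, from Rarg at a mean of 42.1 FPKM to Rxra at 14.2 FPKM, then Vdr and Pparg at 5.07 and 4.20 FPKM, then Esr1 at 0.551 FPKM.

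The deposited FPKM values carry a length scaling that differed between libraries. The length they imply for Nr3c1 was 10.9 kb in KO replicate 2 and 10.6 kb in Het replicate 2, against 5.98 to 6.49 kb in the other 4 libraries. Counts divided by annotated exon length gave the order Rarg, Nr3c1, Rxra, Thra, Rara, Rarb, Vdr, Pparg and Esr1, so the places from the second to the sixth depended on the length used. Both gaps, above Vdr and above Esr1, were present in either order.

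None of the 9 receptors passed an adjusted p of 0.05 in edgeR's quasi-likelihood test, and neither did any of the 14632 genes tested (0%). In simulated libraries the same test recovered 12% of 2-fold changes, so a missing call does not show that a receptor was unchanged. At an unadjusted p of 0.05, edgeR called 0 receptors and 4.29% of all genes. DESeq2 called 0 receptors and 0.509% of the genes it tested. Of the receptors, 4 were fitted higher and 5 lower in libraries labelled KO, and their log2 fold changes had a median of -0.07 against -0.01 over all genes. The groups did not overlap for 1 receptor, Pparg, against 10.7% of all genes (5.84% higher and 4.83% lower).

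**Figure D2:**
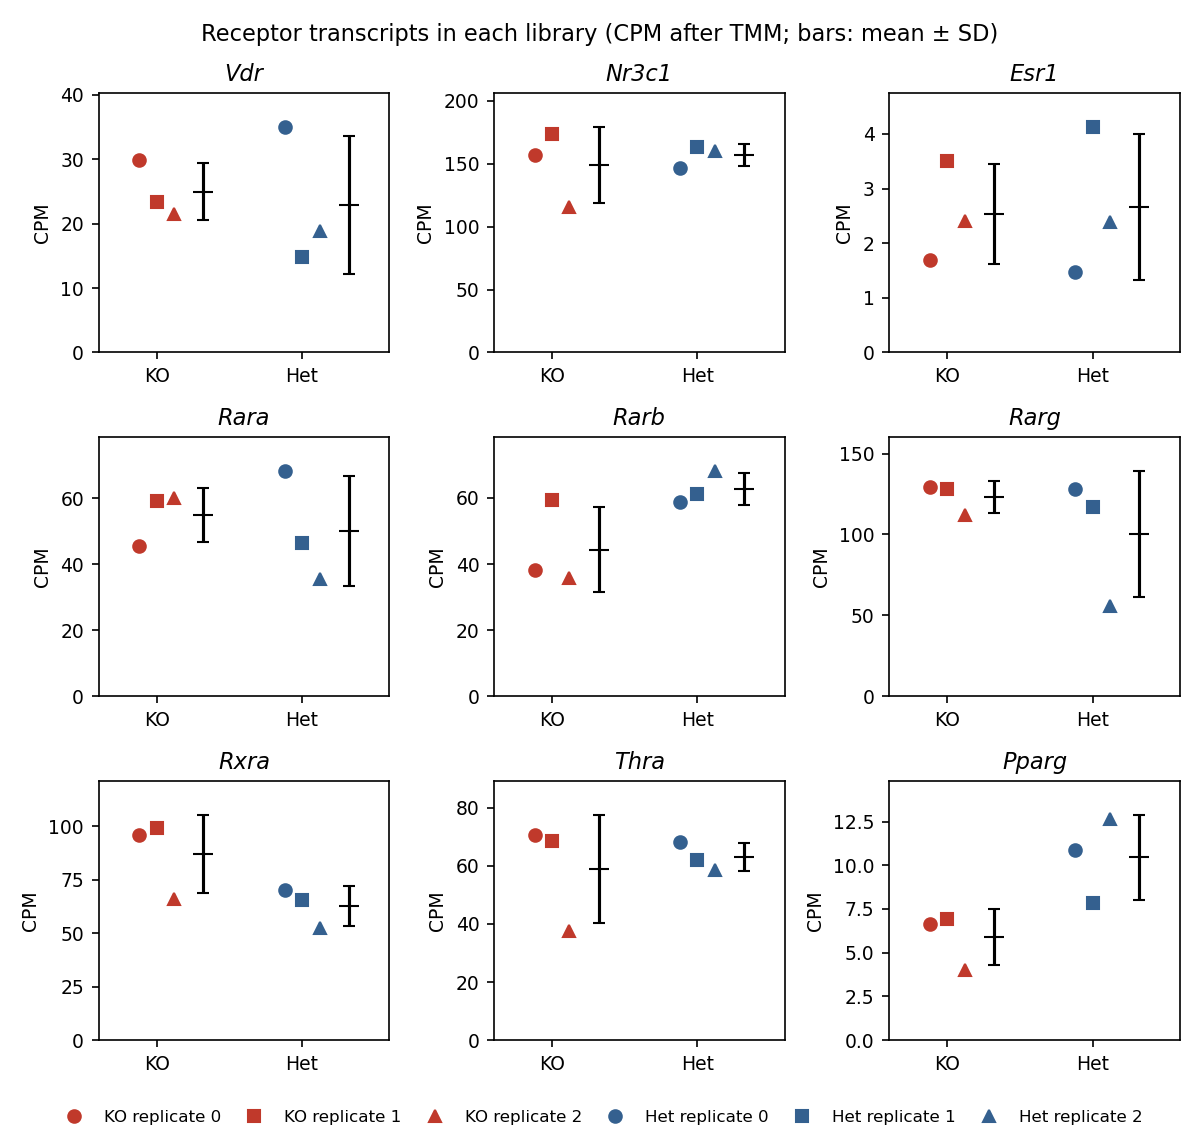
CPM after TMM of each receptor by library, libraries labelled KO on the left (red) and Het on the right (blue), with the mean ± SD of 3 libraries beside each group. Only the Pparg panel shows every KO library, at 4.03 to 6.92 CPM, below every Het library, at 7.82 to 12.6 CPM.

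Retinoic acid receptors come as 3 subtypes, which bind the same ligand. Rarg (chr15:102234938-102257517, minus strand, mm10) is the subtype known for its place in skeletal and cartilage development. Rarg had 129, 128 and 112 CPM in KO replicates 0, 1 and 2, against 128, 117 and 55.9 CPM in Het replicates 0, 1 and 2. Het replicate 2 was the low library, and the other 5 lay close together. KO over Het came to 0.30 on the log2 scale (log2 fold change; standard error, SE, 0.29; edgeR adjusted p 0.976), and to 0.01 without Het replicate 2. Within numbers 0, 1 and 2 the KO over Het ratios were 1.0097, 1.10 and 1.9999.

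Rarb (chr14:16430839-16819156, minus strand), whose transcription retinoic acid induces in many cells, had 38.2, 59.3 and 35.7 CPM in KO replicates 0, 1 and 2, against 58.7, 61.2 and 68.1 CPM in Het replicates 0, 1 and 2. KO replicates 0 and 2 were below all Het libraries, whereas KO replicate 1 lay within the Het range. Means were 44.4 ± 12.97 CPM in KO and 62.7 ± 4.89 CPM in Het libraries (SD, n = 3 each). The log2 fold change of -0.50 (SE 0.24) had an unadjusted p of 0.0671 and an adjusted p of 0.976 in edgeR, and was -0.76 without KO replicate 1. Rarb was lower in KO within 3 of 3 replicate numbers, at KO over Het ratios of 0.650, 0.969 and 0.524. Exons of Top2b, which encodes a DNA topoisomerase, cover 34.1% of the Rarb exonic bases on the opposite strand, the antisense gene Gm48162 covers a further 4.31%, and the strand setting of the counting is not given in the sources used here. Reads of the pair may therefore be mixed in the Rarb counts. Top2b had 79.0, 102 and 65.999 CPM in KO replicates 0, 1 and 2, against 72.8, 89.0 and 52.2 CPM in Het replicates 0, 1 and 2, with a log2 fold change of 0.21 (SE 0.25).

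Rara (chr11:98927818-98974942, plus strand) is the most widely expressed RAR subtype. It had 45.5, 59.4 and 60.1 CPM in KO replicates 0, 1 and 2, against 68.3, 46.5 and 35.4 CPM in Het replicates 0, 1 and 2. The Het libraries enclosed all KO libraries, with Het replicate 0 the highest and Het replicate 2 the lowest. Its log2 fold change of 0.13 (SE 0.27, edgeR adjusted p 0.981) turned to -0.052 without Het replicate 2 and to -0.076 in limma-voom with quality weights, and was 0.42 without Het replicate 0.

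The makeup of the RAR pool was read as each subtype's share of the summed RAR FPKM in a library. By FPKM, Rarg held the largest share in all 6 libraries. With counts divided by exon length it was also first, but nearly level with Rarb in Het replicate 2. There, the values on that scale were 12.9 for Rarg and 12.7 for Rarb. The FPKM share of Rarg was 62.8%, 52.3% and 60.3% in KO replicates 0, 1 and 2. It was 52.6%, 52.0% and 43.95% in Het replicates 0, 1 and 2. Rarb held 18.2%, 25.8% and 12.5% in KO replicates 0, 1 and 2, against 23.5%, 29.2% and 34.2% in Het replicates 0, 1 and 2. For both, the group ranges overlapped through KO replicate 1, while within each of the 3 replicate numbers the KO share was higher for Rarg and lower for Rarb. The mean share of Rarg differed by 8.94 percentage points (58.5 ± 5.48% in KO, 49.5 ± 4.83% in Het, SD, n = 3 each) with a two-sided exact permutation p of 0.2. For Rarb the difference was -10.1 points (18.9 ± 6.69% in KO, 29.0 ± 5.33% in Het), again with an exact permutation p of 0.2, and for Rara it was 1.16 points (22.7 ± 4.21% in KO, 21.5 ± 2.54% in Het) with p of 0.7. Adjusted over the 3 shares, the exact permutation p-values were 0.3, 0.3 and 0.7, and 3 against 3 libraries cannot give a p below 0.1. Paired by number, the exact sign-flip permutation p was 0.25 for Rarg and for Rarb, the smallest that 3 pairs allow, and 0.75 for Rara. Shares of a library sum to a whole, so the 3 comparisons are not independent. The Rara difference was -1.12 points without KO replicate 2 and -0.18 points without Het replicate 1. In KO and Het replicate 2, FPKM implied lengths of 3.51 and 3.49 kb for Rarb, against 2.58 to 2.79 kb elsewhere. For Rarg they were 2.28 and 2.23 kb, against 2.54 to 2.98 kb elsewhere. With counts divided by exon length, the share differences were 9.21 points for Rarg, -10.3 for Rarb and 1.06 for Rara. Top2b reads may be mixed into the Rarb share, as in its counts.

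**Figure D3:**
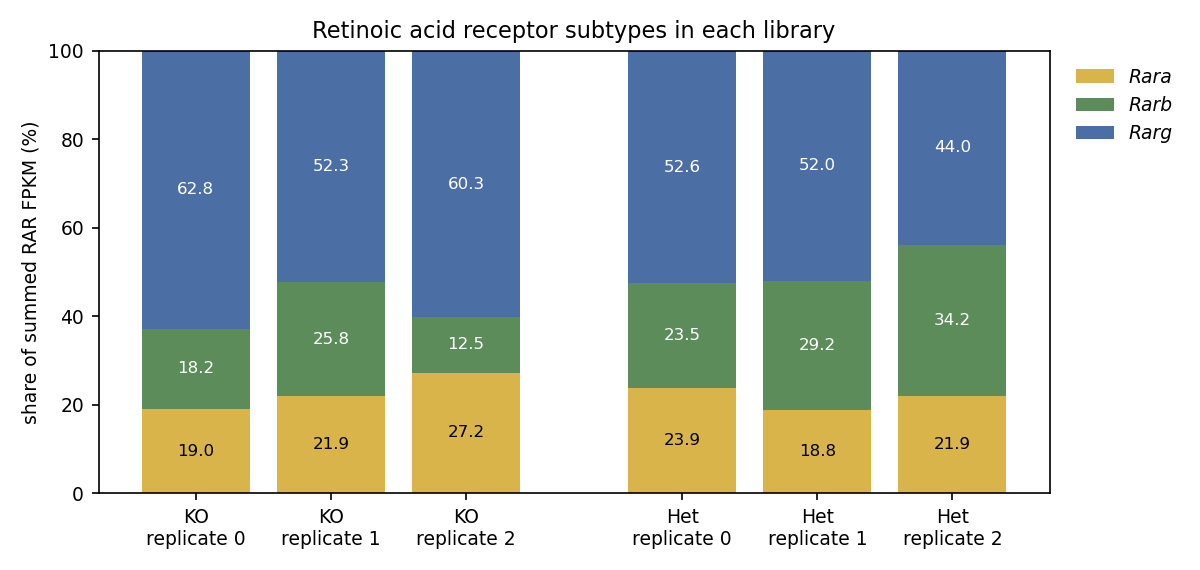
Stacked shares of Rara, Rarb and Rarg in the summed RAR FPKM of each library, in percent, libraries labelled KO on the left and Het on the right. Rarg takes 52.3% to 62.8% in KO and 43.95% to 52.6% in Het libraries, and Rarb takes 12.5% to 25.8% in KO and 23.5% to 34.2% in Het libraries.

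Rxra (chr2:27676440-27762957, plus strand) is one of the RXRs with which Vdr, the RARs, Thra and Pparg pair. It had 95.7, 99.2 and 65.8 CPM in KO replicates 0, 1 and 2, against 70.2, 65.3 and 52.2 CPM in Het replicates 0, 1 and 2. KO replicates 0 and 1 were above all Het libraries, and KO replicate 2 fell inside the Het range. Its log2 fold change of 0.47 (SE 0.22) came with an unadjusted p of 0.0649 and an adjusted p of 0.976 in edgeR. Within each replicate number the KO library was higher, with KO over Het ratios of 1.36, 1.52 and 1.26 for numbers 0, 1 and 2. A fit blocked on the replicate number gave, in edgeR, an unadjusted p of 0.0275 and an adjusted p of 0.797. The same blocked edgeR fit gave an unadjusted p of 0.0538 for Rarb, 0.0928 for Pparg and 0.151 for Rarg. Rxrb, the other broadly expressed RXR, was at a mean of 41.0 FPKM (20.3 to 66.2). Rxra made up 15.04% to 33.6% of the summed RXR FPKM across the 6 libraries, with means of 24.6% in KO and 23.1% in Het. This share depended on the length used, and with counts divided by exon length its mean was 32.2%.

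Vdr (chr15:97854425-97910630, minus strand), through which the active form of vitamin D controls calcium handling and matrix genes, had 29.9, 23.4 and 21.5 CPM in KO replicates 0, 1 and 2, against 35.0, 14.8 and 18.9 CPM in Het replicates 0, 1 and 2. The Het libraries spread more widely than the KO libraries and enclosed them. Its log2 fold change of 0.12 (SE 0.34, edgeR adjusted p 0.982) turned to -0.11 without Het replicate 1 and to -0.01 without KO replicate 0, and was 0.56 without Het replicate 0.

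Nr3c1 (chr18:39410545-39519421, minus strand) mediates the action of cortisol and corticosterone, including bone loss under excess. It had 157, 174 and 115 CPM in KO replicates 0, 1 and 2, against 147, 163 and 160 CPM in Het replicates 0, 1 and 2. The groups overlapped, and KO replicate 2 was the lowest of all. On the log2 scale KO over Het was -0.08 (SE 0.20, edgeR adjusted p 0.981), and 0.078 without KO replicate 2. Nr3c1 held 93.0% to 99.6% of its summed FPKM with Nr3c2, the mineralocorticoid receptor, which also binds glucocorticoids.

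Esr1 (chr10:4611593-5005614, plus strand), the main estrogen receptor of bone, was detected at low depth, with 103, 213 and 126 counts in KO replicates 0, 1 and 2, against 92, 148 and 85 counts in Het replicates 0, 1 and 2. These came to 1.69, 3.50 and 2.40 CPM in KO and 1.48, 4.12 and 2.39 CPM in Het libraries. In both groups replicate 0 was lowest and replicate 1 highest, so the spread within a group exceeded the distance between the group means. A log2 fold change of -0.07 (SE 0.69, edgeR adjusted p 0.9996) turned to 0.39 without Het replicate 1, to 0.16 without KO replicate 0 and to 0.019 with a newer version of the edgeR method. The libraries also differed in sex-linked transcripts, with Xist, transcribed from the inactive X chromosome, at 43.8, 0.230 and 46.6 CPM in KO replicates 0, 1 and 2, against 0.145, 78.4 and 23.7 CPM in Het replicates 0, 1 and 2. The highest Esr1 levels were in KO replicate 1, with the lowest Xist of its group, and Het replicate 1, with the highest. Y-linked transcripts, summed, were present in every library, at 70.6, 170 and 55.0 CPM in KO replicates 0, 1 and 2, against 124, 98.8 and 72.5 CPM in Het replicates 0, 1 and 2, so libraries with high Xist also held Y-linked RNA.

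Thra (chr11:98740638-98769006, plus strand) encodes the thyroid hormone receptor that predominates in the skeleton. It had 70.7, 68.6 and 37.4 CPM in KO replicates 0, 1 and 2, against 68.2, 62.0 and 58.7 CPM in Het replicates 0, 1 and 2. KO replicate 2 was the low library, and KO replicates 0 and 1 were above all Het libraries. The log2 fold change was -0.10 (SE 0.26, edgeR adjusted p 0.982) and 0.15 without KO replicate 2. Thra held 96.5% to 99.2% of its summed FPKM with Thrb. Exons of Nr1d1, a nuclear receptor of the circadian clock, cover 5.70% of the Thra exonic bases on the opposite strand. Nr1d1 had 46.0, 42.9 and 42.2 CPM in KO replicates 0, 1 and 2, against 57.0, 58.3 and 51.8 CPM in Het replicates 0, 1 and 2, with every KO library below every Het library and an edgeR adjusted p of 0.976.

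Pparg (chr6:115360951-115490399, plus strand) had 6.66, 6.92 and 4.03 CPM in KO replicates 0, 1 and 2, against 10.9, 7.82 and 12.6 CPM in Het replicates 0, 1 and 2. Every library labelled KO was below every library labelled Het, with KO replicate 2 the lowest and Het replicate 2 the highest. Means were 5.87 ± 1.597 CPM in KO and 10.4 ± 2.44 CPM in Het libraries (SD, n = 3 each). The log2 fold change of -0.83 (SE 0.38) had an unadjusted p of 0.0598 and an adjusted p of 0.976 in edgeR, an adjusted p of 0.771 in DESeq2, and an exact permutation p of 0.1, the smallest that 3 against 3 libraries can give. Pparg was not called by any method, and its KO over Het ratios within numbers 0, 1 and 2 were 0.613, 0.884 and 0.319.

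Adipocyte markers gave the cell context of Pparg. Adipoq, Lep and Cidec, which define mature adipocytes, were listed at 0 FPKM in all 6 libraries, and Plin1 and Fabp4 together came to 0.821, 0.115 and 1.008 CPM in KO replicates 0, 1 and 2, against 1.22, 0.807 and 0 CPM in Het replicates 0, 1 and 2. Endothelial markers, summed over 6 genes, were at 13.8, 19.3 and 20.3 CPM in KO replicates 0, 1 and 2, against 16.3, 26.8 and 44.6 CPM in Het replicates 0, 1 and 2. Summed markers of macrophages and leukocytes were at 27.3 to 146 CPM in KO and 20.8 to 90.7 CPM in Het libraries. Of the 6 endothelial markers, 2 were fitted higher and 4 lower in libraries labelled KO, at a median log2 fold change of -0.75. Groups did not overlap for 2 of them, both lower, beside 4.83% of all genes. All 9 tested macrophage and leukocyte markers were fitted higher, at a median of 0.72, with overlapping groups for each. Without KO replicate 2 the split of these 9 was 4 higher and 5 lower. The part of these cells in the Pparg values was not tested.

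**Figure D4:**
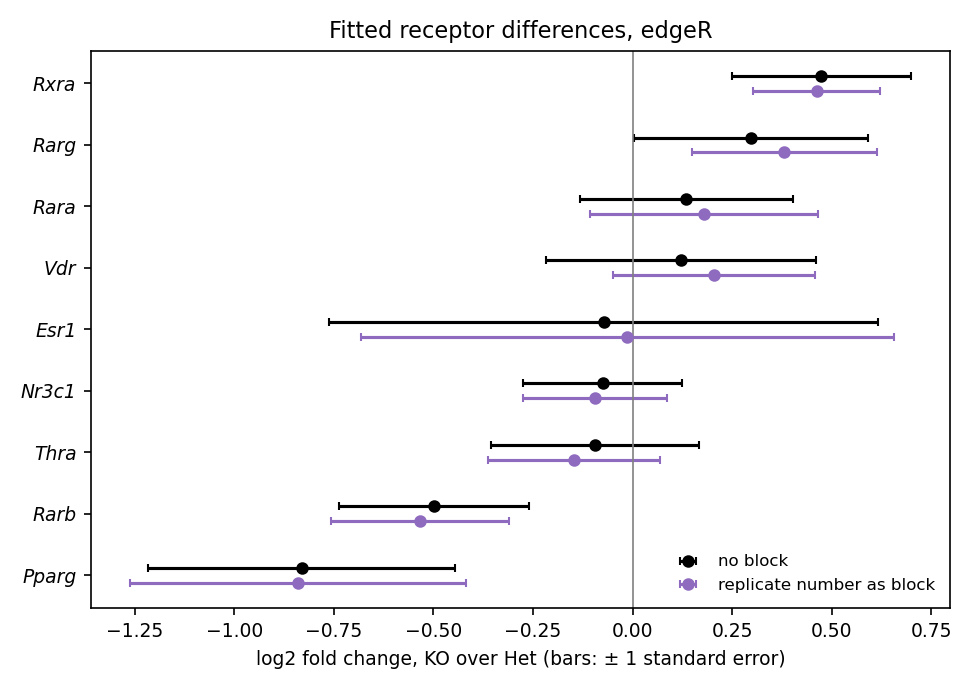
Log2 fold change, KO over Het, of each receptor in edgeR, with bars of 1 standard error, unblocked (black) and blocked on the replicate number (purple). The bars of Pparg, Rarb and Rxra, at -0.83, -0.50 and 0.47 without the block, stay clear of 0 in both fits. Without the block the Rarg bar, at 0.296 with a standard error of 0.294, ends almost at 0. The bars of Esr1, Vdr, Nr3c1, Thra and Rara cross 0.

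Genes that make, carry or respond to each receptor's ligand were read from the same fit, in which edgeR called none of them. Of 18 tested genes of retinoid metabolism and response, 3 were fitted higher and 15 lower in libraries labelled KO, against 49% and 51% of all genes, and their median log2 fold change was -0.33. Groups did not overlap for 3 of the 18, all lower, beside 10.7% of all genes without overlap in either direction and 4.83% without overlap and lower. Rdh10, which makes retinaldehyde from retinol, had 37.8, 30.5 and 43.8 CPM in KO replicates 0, 1 and 2, against 57.9, 55.2 and 46.1 CPM in Het replicates 0, 1 and 2. Aldh1a3, which oxidises retinaldehyde to retinoic acid, had 295, 261 and 242 CPM in KO replicates 0, 1 and 2, against 370, 343 and 335 CPM in Het replicates 0, 1 and 2. Every KO library was below every Het library for both genes, at log2 fold changes of -0.51 (SE 0.22) and -0.39 (SE 0.17) and edgeR adjusted p of 0.976 each. The groups overlapped for the other tested enzymes of the oxidising step, Aldh1a2 with 20.5, 13.5 and 18.0 CPM in KO replicates 0, 1 and 2, against 24.4, 30.8 and 17.7 CPM in Het replicates 0, 1 and 2, and Aldh1a1 with 1.10 to 5.14 CPM in KO and 3.33 to 4.82 CPM in Het libraries.

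Rarres2, a retinoid-responsive gene encoding the chemokine chemerin, had 9.54, 6.85 and 8.10 CPM in KO replicates 0, 1 and 2, against 14.6, 12.3 and 32.4 CPM in Het replicates 0, 1 and 2, at a log2 fold change of -1.27 (SE 0.41). Cyp26a1, with the promoter repeat shown above, had 92.3, 99.6 and 225 CPM in KO replicates 0, 1 and 2, against 66.1, 125 and 270 CPM in Het replicates 0, 1 and 2. In both groups its highest value was in replicate 2, and the groups overlapped (log2 fold change -0.15, SE 0.51). Its mean of 104 FPKM was the highest of the list through the replicate 2 libraries, at 167 FPKM in KO and 198 FPKM in Het, and in the other 4 it was below Aldh1a3. Across the libraries left out in turn, 12 to 15 of the 18 genes were fitted lower, and the median was -0.58 without KO replicate 2 and -0.07 on log2(FPKM + 0.1).

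**Figure D5:**
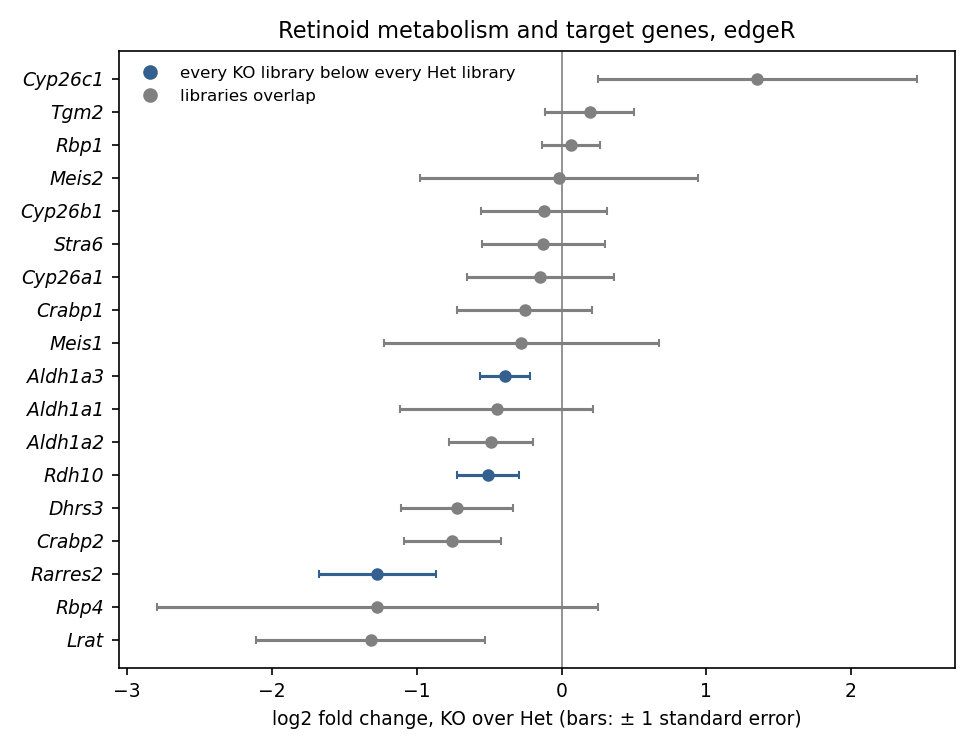
Log2 fold change, KO over Het, with bars of 1 standard error for the 18 tested genes of retinoid metabolism and response, in blue where every KO library was below every Het library. Points lie below 0 for 15 of 18 genes, and the 3 blue ones are Rarres2 at -1.27, Rdh10 at -0.51 and Aldh1a3 at -0.39.

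Of 9 tested genes of vitamin D metabolism and response, 7 were fitted higher and 2 lower, with a median of 0.43, and without Het replicate 1 it was 5 higher and 4 lower with a median of 0.17. Spp1, which encodes the bone matrix protein osteopontin and responds to vitamin D, had 473, 580 and 457 CPM in KO replicates 0, 1 and 2, against 268, 310 and 177 CPM in Het replicates 0, 1 and 2. Every KO library was above every Het library, at a log2 fold change of 0.999 (SE 0.24), with an adjusted p of 0.648 in edgeR and 0.0226 in DESeq2. Of the 9 genes, 1 was without overlap and higher and 1 without overlap and lower, beside 5.84% and 4.83% of all genes. The lower one was Cyp2r1, at 2.46, 3.40 and 2.66 CPM in KO replicates 0, 1 and 2, against 3.62, 3.62 and 3.85 CPM in Het replicates 0, 1 and 2. Its log2 fold change was -0.38 (SE 0.54). Spp1 is also made by osteoblasts, whose summed markers did not overlap between the groups either, although the groups overlapped for all but 1 of the 7. The part of that difference in Spp1 was not tested. Cyp24a1, the vitamin D-degrading enzyme, had counts in 1 library of each group, 7 in KO replicate 0 and 77 in Het replicate 2, and did not enter the test. Lrp5, a Wnt coreceptor, averaged 10.7 ± 3.25 CPM in KO and 7.20 ± 2.40 CPM in Het libraries, and Cyp27a1, a sterol hydroxylase, averaged 3.30 ± 1.23 CPM in KO and 1.49 ± 1.39 CPM in Het libraries (SD, n = 3 each), with overlapping groups for both.

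Of 13 glucocorticoid genes, 7 were fitted higher and 6 lower at a median of 0.01, but the split turned with the libraries, to 9 higher and 4 lower (median 0.26) without Het replicate 2 and to 4 higher and 9 lower (-0.20) without Het replicate 1. Hsd11b2, which inactivates glucocorticoids, had 64.4, 77.0 and 70.7 CPM in KO replicates 0, 1 and 2, against 133, 156 and 39.2 CPM in Het replicates 0, 1 and 2. Its Het libraries enclosed the KO libraries, with Het replicate 2 the lowest of all. Dusp1, a phosphatase induced by glucocorticoids and by stress, had the highest per-length level of the list (827 FPKM, range 420 to 1475) with a log2 fold change of -0.08 (SE 0.45). Zbtb16, another glucocorticoid-induced gene, was near the detection limit at 1.25 ± 0.695 CPM in KO and 0.286 ± 0.482 CPM in Het libraries. Mt1, a metallothionein, was at 9.31 ± 3.25 CPM in KO and 13.6 ± 8.27 CPM in Het libraries (SD, n = 3 each).

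Of 6 tested estrogen and androgen genes, 3 were fitted higher and 3 lower, at a median of -0.09, which ran from -0.15 to 0.06 across left-out libraries. Greb1, an estrogen-induced gene, had 3.50, 7.84 and 4.45 CPM in KO replicates 0, 1 and 2, against 3.94, 13.9 and 5.73 CPM in Het replicates 0, 1 and 2, and like Esr1 it was lowest in replicate 0 and highest in replicate 1 of both groups. Ccnd1, which encodes cyclin D1, averaged 200 ± 42.3 CPM in KO and 152 ± 37.7 CPM in Het libraries. Hsd17b4, a peroxisomal enzyme, averaged 108 ± 15.1 CPM in KO and 128 ± 21.9 CPM in Het libraries. Xbp1 had the highest per-length level (282 FPKM), with a log2 fold change of 0.04 (SE 0.21).

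Of 8 tested thyroid hormone genes, 2 were fitted higher and 6 lower, at a median of -0.21 (-0.11 without Het replicate 2), and the groups overlapped for all 8. Dio3, which inactivates thyroid hormone, had 34.7, 36.0 and 20.0 CPM in KO replicates 0, 1 and 2, against 36.9, 45.2 and 30.3 CPM in Het replicates 0, 1 and 2. Dio2, which activates it, averaged 3.802 ± 1.52 CPM in KO and 5.22 ± 3.12 CPM in Het libraries. Igf1, a growth factor that thyroid hormone raises in bone, was highest per length at 220 FPKM and had a log2 fold change of -0.22 (SE 0.20).

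Of 9 tested adipocyte and PPARγ target genes, 6 were fitted higher and 3 lower, at a median of 0.07, which was -0.11 without KO replicate 2 and 0.47 without Het replicate 0. Lpl, which encodes lipoprotein lipase, had 81.7, 69.2 and 53.6 CPM in KO replicates 0, 1 and 2, against 53.0, 44.1 and 38.5 CPM in Het replicates 0, 1 and 2, so every KO library was higher (log2 fold change 0.59, SE 0.23). Plin2, a lipid droplet coat protein, had 79.4, 69.8 and 82.9 CPM in KO replicates 0, 1 and 2, against 86.1, 91.0 and 127 CPM in Het replicates 0, 1 and 2, so every KO library was lower (-0.39, SE 0.21). These 2 PPARγ targets lay on opposite sides, and were the only ones of the 9 without overlap, 1 in each direction. Of all genes, 5.84% were without overlap and higher and 4.83% without overlap and lower. The early adipogenic factors overlapped between the groups, Cebpd at 275 ± 47.3 CPM in KO and 235 ± 45.2 CPM in Het libraries, and Cebpb, whose mean of 228 FPKM rested on 469 FPKM in KO replicate 2 and 387 FPKM in Het replicate 2 against 111 to 143 FPKM elsewhere, at 138 ± 46.7 CPM in KO and 132 ± 49.98 CPM in Het libraries (SD, n = 3 each).

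Of 12 coregulators, 5 were fitted higher and 7 lower, at a median of -0.12, and without Het replicate 2 it was 7 higher and 5 lower at 0.08. Ncoa2, a coactivator of steroid and retinoid receptors, was at 27.3 ± 3.59 CPM in KO and 39.1 ± 10.5 CPM in Het libraries without overlap, 1 of 12 beside 10.7% of all genes. Ppargc1b, a PPAR coactivator, was at 9.29 ± 2.66 CPM in KO and 5.85 ± 1.20 CPM in Het libraries, and Ncoa3 at 23.5 ± 10.4 CPM in KO and 36.9 ± 19.1 CPM in Het libraries. Hdac3, the deacetylase of the corepressor complex, averaged 75.0 FPKM and the corepressor Ncor1 72.5 FPKM, each ahead of the other in 3 of 6 libraries. Of 23 other nuclear receptors tested, 10 were fitted higher and 13 lower, at a median of -0.06, which ran from -0.21 to 0.06 across left-out libraries and was 0.18 with the block. Groups did not overlap for 3 of the 23, near the 10.7% of all genes, and all were lower, namely Nr1d1, Rora at 35.7 ± 5.41 CPM in KO and 47.6 ± 7.92 CPM in Het libraries, and Nr2f1 at 2.74 ± 0.347 CPM in KO and 4.97 ± 1.82 CPM in Het libraries (SD, n = 3 each). Nr2f6, an orphan receptor, averaged 147 FPKM, the highest mean of that list, and led it in 5 of 6 libraries.

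For each receptor, the genes with the most similar profile were found as those with the smallest root-mean-square (RMS) difference in log2 CPM over the 6 libraries, each centred on its own mean. Rarg was nearest to Fbxl6, at 0.03, and Map2k5, at 0.05, and Thra to Evc2, at 0.04, and Tns1, at 0.05. The values of Nr3c1 to Itsn1 and Fam171a1 were 0.04 each, and those of Rxra to Eftud1 and Nol9 were 0.06 each. For Pparg the nearest were Fam131c at 0.10 and Gm11627 at 0.18, a wider step than for the other receptors. Vdr was nearest to Nckipsd and Pank1, Esr1 to Pot1b and Eif5a2, Rara to Gabpb2 and Dnajc24, and Rarb to Wdr60 and Cybrd1, at 0.09 to 0.12. These are the closest of 11215 genes over 6 libraries and describe likeness only.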

How the data were processed

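Per the labels' protocols, cDNA came from a low-input SMART-Seq kit and libraries from Nextera XT, so reads are not independent molecules. The build mm10 and the tools HTSeq, DESeq2, Cuffdiff, Cufflinks, Bowtie2 2.2.1 and TopHat2 2.0.13 are named, without roles, per the submitters' processing notes. The authors deposited whole-number counts for 17213 genes (main table), estimated counts for 23107 genes (rounded here) and FPKM values. All 54 receptor values were equal in both count tables.

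Groups and replicate numbers came from sample titles. No label says that libraries came from separate animals, so p-values reflect just the spread among them, which may be technical. Counts were tested in R 4.3.3 with edgeR 4.0.16 (quasi-likelihood, TMM, default filter, two-sided, Benjamini-Hochberg threshold 0.05). CPM levels are after TMM. DESeq2 1.42.0 and limma 3.58.1 were alternatives, and scripts were tested on simulated data. There, edgeR recovered 12% of 2-fold and 69% of 4-fold changes at the threshold. Same-numbered libraries deviated together (correlations 0.25, 0.18 and 0.16, other pairs -0.13 to -0.06). Deviations were centred within each group, which pulls the other pairs negative when same-numbered pairs are positive. The labels state no batch or day for the numbers, so the main tests are unpaired, and a fit with the replicate block was an alternative. Positions came from GENCODE M21 (mm10) and promoters from RefSeq. FPKM tests used log2(FPKM + 1) or log2(FPKM + 0.1), which understate changes of low genes.

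The receptors and gene lists were chosen with earlier results of these data known. Named genes are the receptors, up to 3 genes of each list with the smallest unadjusted p, the gene of each list with the highest mean FPKM, receptors of the same subfamilies, the 2 nearest profiles, Pth1r and Pthlh. Cyp24a1, Cyp2r1, Top2b, Gm48162, Xist, Aldh1a1, Aldh1a2, Ncor1, the Y-linked sum and the adipocyte markers were named after their values were seen.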

Additional observations from a re-analysis of the deposited data

How the results depend on the processing

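No receptor passed an adjusted p of 0.05 under any of 18 alternatives, with 0 to 0 called across left-out libraries. Of 161 recomputed receptor fold changes, 152 kept their direction and 9 reversed, in 5 receptors. Across left-out libraries, log2 fold changes ran from -0.11 to 0.56 for Vdr (-0.01 without KO replicate 0), -0.38 to 0.39 for Esr1 (0.16 without KO replicate 0), -0.20 to 0.078 for Nr3c1, -0.052 to 0.42 for Rara and -0.23 to 0.15 for Thra. Rara was -0.076 in limma-voom and Esr1 0.019 with the newer edgeR method, chosen after seeing the data. Pparg (-1.0003 to -0.62), Rarb (-0.76 to -0.36), Rxra (0.37 to 0.64) and Rarg (0.01 to 0.50) kept direction. RAR share differences ran from 6.15 to 12.01 points for Rarg, -13.6 to -6.92 for Rarb and -1.12 to 3.03 for Rara (-0.18 without Het replicate 1). Over all genes, edgeR called 0 genes (628 at an unadjusted p of 0.05), DESeq2 87, and 1 gene was called at 1 CPM or more in all libraries, in limma-voom, in each of the 3 FPKM fits and with the newer edgeR method, with 0 to 1 across left-out libraries. The cause of these shifts was not tested. With the replicate block, 0 genes were called (908 unadjusted), and the block changed no receptor's call. Esr1 had the fewest counts of the receptors, 85 to 213 a library.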
